A study of Setaria italica with 6 samples.

Results

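Chromosome 8 of foxtail millet (Setaria italica), a small-grained C4 cereal, carried 2535 of the 36886 genes in the count and FPKM tables of this spikelet transcriptome. Its genes were taken as every identifier that begins with Seita.8G, and were ordered by the serial number in the identifier. The serial numbers run without a gap, so gene 1 is the first identifier of the chromosome and gene 2535 the last. Chromosomes 1 to 7 and 9, with 31729 genes chosen in the same way, served for comparison. The other genes of the tables carry no chromosome number in the form used here and entered only the fits. Spikelets, the grass flower units that each enclose a developing grain, were taken 3 days after flowering from plants grown in a greenhouse at 30 °C with 14 h of light. The Siysl1 mutant was compared with the wild type Yugu1, the inbred line whose genome is the species' reference, with 3 libraries each. The design text describes the libraries of a genotype as different individuals. Neither the labels nor the design text give the mutant allele, the line it was made in or the number of independent mutant lines.

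The labels of the mutant libraries differ from each other. All 3 titles say Siysl1, but the genotype entries name SiYSL1 for replicate 1, SiYSL2 for replicate 2 and SiYSL3 for replicate 3. The titles were followed, and the main results are also given with Siysl1 replicate 1 alone and without it. YSL (yellow stripe-like) proteins are membrane carriers that move iron, zinc and the like as complexes with nicotianamine, and in grasses with the phytosiderophores that roots secrete to take up iron. The study's comparison asks which spikelet transcripts differ when SiYSL1 is mutated. Names and identifiers of genes could not be paired with the tables at hand, so the transcript of SiYSL1 was not analysed here. For the same reason no spikelet marker could be looked up and no function is given for any gene below.

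Genes are not spread evenly along grass chromosomes. Distal arms are usually rich in genes that are active in many tissues, while the regions around the centromere are rich in repeats and hold fewer active genes. Copies of a gene often lie side by side as tandem arrays, and many families in such arrays, such as those of disease resistance, are active only under particular conditions. The order used below is that of the identifiers. It gives no distances in bases and does not mark the centromere.

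Library totals ran from 30734508 to 32691355 counts in Siysl1 and from 30368325 to 32117652 in Yugu1, so depth overlapped between the genotypes. Of the chromosome 8 genes, 1395 (55.0%) had enough counts to be tested between the genotypes, against 63.6 to 73.6% of the genes of each other chromosome. Of the 1140 genes not tested, 715 had no count in any Yugu1 library. Counting error limits only weak genes at this depth. The limit behind a 0 is taken as 3 counts per library, which is 0.0891 to 0.102 CPM (counts scaled to library size). This floor covers counting error only.

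In wild-type spikelets, chromosome 8 had the highest share of silent genes and the lowest share of expressed genes of the 9 chromosomes. A gene was called silent with 0 counts in all 3 Yugu1 libraries, expressed with at least 1 FPKM (fragments per kilobase of gene, scaled to library size) in all 3, and weak otherwise. By this rule 720 genes (28.4%) were silent, 736 (29.0%) weak and 1079 (42.6%) expressed. Over the other 8 chromosomes together 16.5% of genes were silent and 59.3% expressed. The closest of them was chromosome 6, with 22.0% silent and 52.9% expressed, and the farthest was chromosome 9, with 14.0% silent and 63.2% expressed. The order of chromosomes at both ends was the same under looser and stricter rules. With under 10 counts in each Yugu1 library as the limit, 43.8% of chromosome 8 genes were silent, against 25.1 to 35.1% elsewhere. With at least 5 FPKM as the limit, 30.3% were expressed, against 39.4 to 48.4% elsewhere.

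The genes of chromosome 8 that were expressed had levels only a little below those of other chromosomes. Their median in Yugu1 was 12.5 FPKM, with quartiles at 4.55 and 30.0 FPKM, and the median over the other chromosomes was 14.5 FPKM. Of the 1079 expressed genes, 64 (5.93%) reached 100 FPKM, against 7.07% elsewhere. In bulk tissue, fewer cells that express a gene and less RNA per cell cannot be told apart, here or in the comparisons of genotypes below.

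Silent genes lay next to each other more often than on the other chromosomes, but they were also more frequent here. A silent gene was followed by another silent gene in 43.5% of cases, with 28.4% of genes silent. On the other chromosomes the range was 27.6 to 37.2%, with 14.0 to 22.0% silent. Chromosome 9, with 14.0% silent, had 28.5%, and chromosome 6, with 22.0% silent, had 37.2%. A larger silent share alone makes silent neighbours and runs more frequent, so these counts do not measure clustering beyond it. There were 22 runs of at least 5 neighbouring silent genes, which together held 138 genes, 5.44% of the chromosome. The other 8 chromosomes had 4 to 14 such runs each and 63 in all. Per 1000 annotated genes this is 8.68 runs on chromosome 8, against 1.19 to 5.47 elsewhere. None of the 22 runs lay among the first 600 genes; the first began at gene 613, and 8 began at gene 2100 or later. The longest run held 14 genes, from 2307 to 2320, and none of these genes had a count in any of the 6 libraries. The longest runs of the other chromosomes held 7 to 11 genes.

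Silence in the wild type was largely silence in the mutant. Of the 138 genes in silent runs, 127 also had 0 counts in all 3 Siysl1 libraries. The other 11 had counts in Siysl1, 10 of them at most 6 in any library. The exception was gene 1084, the first gene of its run, with 82, 72 and 87 counts in the Siysl1 libraries and 0 in each Yugu1 library. Over the whole chromosome 755 genes were silent in Siysl1 and 720 in Yugu1, and 624 (24.6%) were silent in both. The 131 genes with counts in Yugu1 alone had a median of 4 counts over its 3 libraries, and the 96 with counts in Siysl1 alone a median of 3.

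Long expressed stretches were few, on a chromosome where 42.6% of genes were expressed, against 52.9 to 63.2% elsewhere. A smaller expressed share alone makes such stretches fewer. Runs of at least 10 neighbouring expressed genes numbered 3 on chromosome 8, against 10 to 43 on each of the other chromosomes, or 1.18 per 1000 genes against 3.57 to 8.93. They were genes 144 to 154, genes 191 to 202 and genes 581 to 590, all within the first 600 genes. The longest, genes 191 to 202, held 12 genes, while the longest runs elsewhere held 12 to 31. Its members did not change together between the genotypes. Gene 198 had 16.4, 16.3 and 14.5 FPKM in Siysl1 and 51.5, 54.5 and 54.7 FPKM in Yugu1, a log2 fold change of -1.87 ± 0.06 (SE). Gene 192, in the same run, had 10.2, 12.2 and 11.0 FPKM in Siysl1 and 6.07, 5.53 and 5.39 FPKM in Yugu1, a log2 fold change of 0.88 ± 0.13. Both passed the edgeR test (adjusted p = 7.70e-13 and 2.08e-05), and the libraries of the genotypes did not overlap for either gene. Genes 193, 195 and 196 of the run did not pass, with log2 fold changes of -0.00, 0.07 and -0.04.

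**Figure D1:**
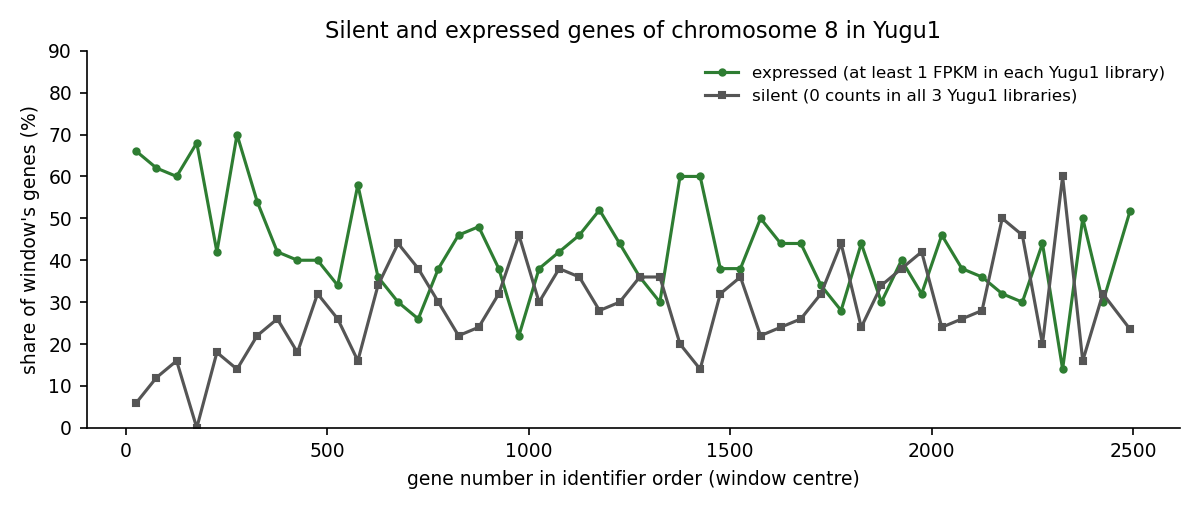
Silent and expressed genes along chromosome 8 in the 3 Yugu1 libraries. The horizontal axis is the place in the identifier order, by the centre of each window of 50 genes, and the vertical axis the percent of the window's genes that were expressed (circles) or silent (squares). Silent genes made up 0 to 60% of a window, with the lowest share in genes 151 to 200 and the highest in genes 2301 to 2350.

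The beginning of the order differed from the rest of the chromosome. When the order was divided into 5 parts of 507 genes, 16.4% of the first part was silent, close to the 16.5% of the other chromosomes together, whereas the 4 later parts had 30.2 to 32.9%. The expressed share was 54.0% in the first part, 37.7%, 44.6% and 39.6% in the next 3 parts and 36.9% in the last. In windows of 50 genes the silent share had a median of 28.0% over the 50 windows of chromosome 8 and 16.0% over the 632 windows of the other chromosomes. Windows with at least 40% silent genes numbered 7 on chromosome 8 (14.0%) and 12 elsewhere (1.90%). Genes 151 to 200 had no silent gene and 34 expressed ones. Genes 2301 to 2350, which contain the longest silent run, had 30 silent and 7 expressed genes. Expressed genes outnumbered silent ones in 38 of the 50 windows, against 614 of 632 elsewhere.

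**Figure D2:**
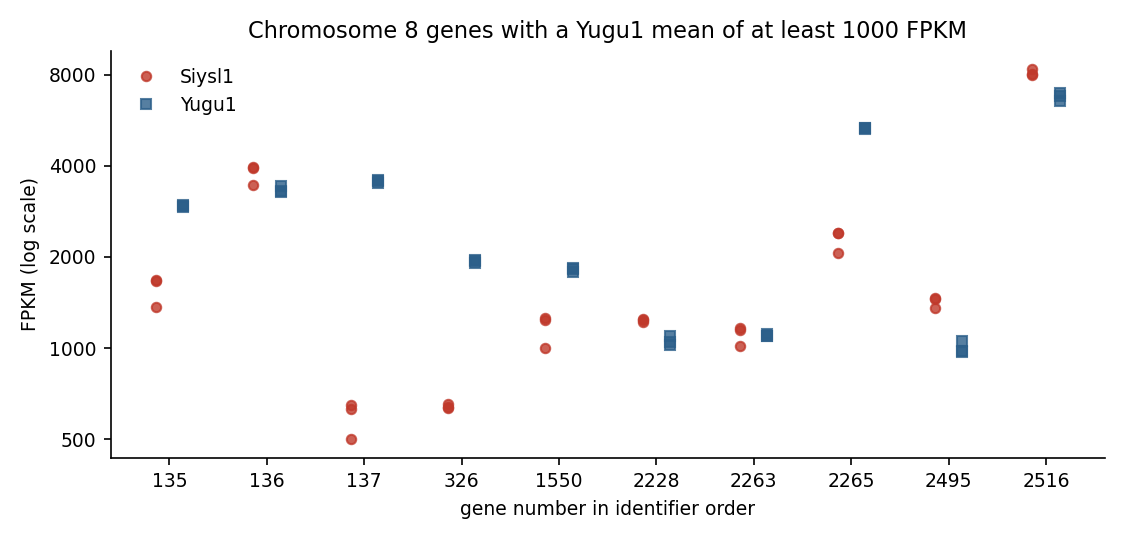
The 10 chromosome 8 genes with a mean of at least 1000 FPKM in Yugu1. Each point is a library, on a log axis of FPKM, with Siysl1 (circles) left of Yugu1 (squares). Genes 2265, 137, 135, 326 and 1550 were lower in all Siysl1 libraries than in any Yugu1 library.

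The few very abundant transcripts of the chromosome did not share a direction. The 5 most abundant genes by mean Yugu1 FPKM were 2516, 2265, 137, 136 and 135. The level of gene 2516 was 8351, 8044 and 7978 FPKM in Siysl1 and 6828, 6951 and 6541 FPKM in Yugu1, which is a log2 fold change of 0.17 ± 0.04 (SE) that passed the edgeR test (adjusted p = 0.00102). Every Siysl1 library lay above every Yugu1 library, but the change was small. Gene 2265 had 2057, 2395 and 2393 FPKM in Siysl1 and 5297, 5345 and 5338 FPKM in Yugu1. It was lower in all mutant libraries, by a log2 fold change of -1.32 ± 0.05 (edgeR adjusted p = 3.53e-12).

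Genes 135, 136 and 137 are neighbours with like lengths, 405 to 418 bases as implied by their counts and FPKM and means of 2946 to 3554 FPKM in Yugu1. Their differences were unequal. Gene 137 had 499, 647 and 629 FPKM in Siysl1 and 3556, 3603 and 3504 FPKM in Yugu1 (log2 fold change -2.68 ± 0.07, edgeR adjusted p = 9.45e-14). For gene 136, between the other two, the levels were 3448, 3954 and 3925 FPKM in Siysl1 and 3277, 3305 and 3428 FPKM in Yugu1, and the test did not call it (log2 fold change 0.08 ± 0.05, edgeR adjusted p = 0.171). Without a scaling factor gene 136 had an adjusted p of 0.00368 with a log2 fold change of 0.18. Gene 135 measured 1362, 1683 and 1662 FPKM in Siysl1 and 2921, 2940 and 2978 FPKM in Yugu1 (log2 fold change -1.01 ± 0.06, edgeR adjusted p = 1.43e-09). For all 3 genes the lowest mutant value was that of Siysl1 replicate 1. If the 3 genes are near-identical copies, reads may have been split among them, which was not tested.

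A mean of at least 1000 FPKM in Yugu1 was reached by 10 of the 1079 expressed genes of chromosome 8, against 39 of 18823 elsewhere. The 5 beyond those above were chosen after their values were seen. Gene 326 averaged 640 ± 9.49 FPKM in Siysl1 and 1934 ± 15.4 FPKM in Yugu1 (SD, n = 3 each), and gene 1550 averaged 1161 ± 143 FPKM in Siysl1 and 1814 ± 34.6 FPKM in Yugu1. Both were called lower, with log2 fold changes of -1.69 and -0.74. Gene 2495 averaged 1425 ± 62.4 FPKM in Siysl1 and 1001 ± 44.9 FPKM in Yugu1, and gene 2228 averaged 1235 ± 13.8 FPKM in Siysl1 and 1055 ± 37.6 FPKM in Yugu1; both were called higher, by log2 fold changes of 0.41 and 0.13. Gene 2263, whose implied length of 1316 bases is close to the 1313 bases of gene 2265, was not called (log2 fold change -0.09 ± 0.05). Its sign changed without a scaling factor, to 0.01.

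As a whole, chromosome 8 took a slightly smaller share of the counts in the mutant. The share was 5.77, 5.86 and 5.84% in the Siysl1 libraries and 6.03, 6.01 and 6.04% in the Yugu1 libraries, a difference of -0.205 percentage points without overlap. An exact two-sided permutation test of 3 libraries against 3 cannot go below p = 0.1, so none is given. This difference rests on gene 2265, which had 83243, 102789 and 100202 counts in Siysl1 and 223180, 213243 and 218357 in Yugu1. Without that gene the share was 5.52 ± 0.02% in Siysl1 and 5.33 ± 0.02% in Yugu1 (SD, n = 3 each), so the difference turned to 0.194 percentage points. The number of chromosome 8 genes with at least 1 FPKM was 1167, 1169 and 1167 in the Siysl1 libraries and 1134, 1125 and 1125 in the Yugu1 libraries. FPKM is scaled to library size only, and without a further scaling factor the median log2 fold change of all tested genes was 0.11. This number was not counted on the other chromosomes, so it is not shown to be particular to chromosome 8. Genes with at least 10 counts numbered 1363, 1375 and 1362 in Siysl1 and 1368, 1350 and 1362 in Yugu1, and here the genotypes overlapped.

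Between the genotypes, chromosome 8 genes changed about as often as other genes, but rises of at least 2-fold were more frequent among them. Falls of at least 2-fold were a little more frequent, and falls of 4-fold or more were near the background. Of its 1395 tested genes, 849 (60.9%) passed the edgeR test at an adjusted p under 0.05, against 58.6% of all 25117 genes tested. Higher in Siysl1 were 459 genes, or 32.9% against a background of 29.9%, and lower were 390, or 28.0% against 28.7%. Changes of at least 2-fold were found in 206 genes that rose, which is 14.8% against a background of 10.9%, and in 128 that fell, which is 9.18% against 7.61%. At 4-fold or more, 69 genes rose (4.95% against 3.0%) and 44 fell (3.15% against 2.98%). The libraries of the genotypes did not overlap in CPM for 904 genes, 64.8% against a background of 64.0%. The median log2 fold change was 0.03 on chromosome 8, 0.01 on the other chromosomes and 0.01 over all tested genes, and the median of its absolute value was 0.42, 0.34 and 0.35 in the same sets.

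Weakly expressed genes have larger fold changes, and the tested genes of chromosome 8 were weaker, with a median of 3.27 log2 CPM against 3.78 elsewhere. The number of calls was therefore set against an expectation from the other 8 chromosomes in 20 bins of equal mean log2 CPM. At matched expression 167 genes would be at least 2-fold higher, and 206 were, 1.23 times as many. Each other chromosome was set in turn against the rates of the 8 chromosomes besides itself, chromosome 8 included. This ratio then lay between 0.80 on chromosome 6 and 1.06 on chromosome 5. At least 4-fold higher were 69 genes against an expected 47.8, a ratio of 1.45, with 0.74 to 1.15 elsewhere. At least 2-fold lower were 128 against 116 (ratio 1.11, with 0.89 to 1.08 elsewhere), and at least 4-fold lower were 44 against 48.6 (ratio 0.91, with 0.76 to 1.14 elsewhere). For all calls the ratio was 1.05, with 0.98 to 1.01 elsewhere. The difference between rises and falls at 2-fold depended on the matching: in bins of mean log2 CPM over the Yugu1 libraries only, the ratio was 1.18 for 2-fold higher and 1.18 for 2-fold lower genes, and 1.38 and 0.98 at 4-fold. In bins of mean log2 FPKM the 2-fold ratios were 1.20 and 1.07, and with 10 or 4 bins of mean log2 CPM they were 1.23 to 1.24 and 1.11 to 1.12. These are counts beside a background, with no test of the list.

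The ratio for 2-fold higher genes stayed above 1 in each of the 17 alternative fits, from 1.17 without Siysl1 replicate 1 to 1.44 with that replicate alone. Siysl1 replicate 1 alone gave 202 genes at least 2-fold higher and 143 lower, and the fit without it gave 205 and 129. With replicate 1 alone the mutant has a single library, which is assumed to vary like the Yugu1 libraries, so that fit has no replicate check in the mutant. The 849 calls included 670 of those made with replicate 1 alone and 795 of those made without it, 0 of them in the opposite direction. For 2-fold lower genes the ratio ran from 0.99 with the DESeq2 Wald test to 1.21, and for 4-fold lower genes from 0.67 to 1.01.

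**Figure D3:**
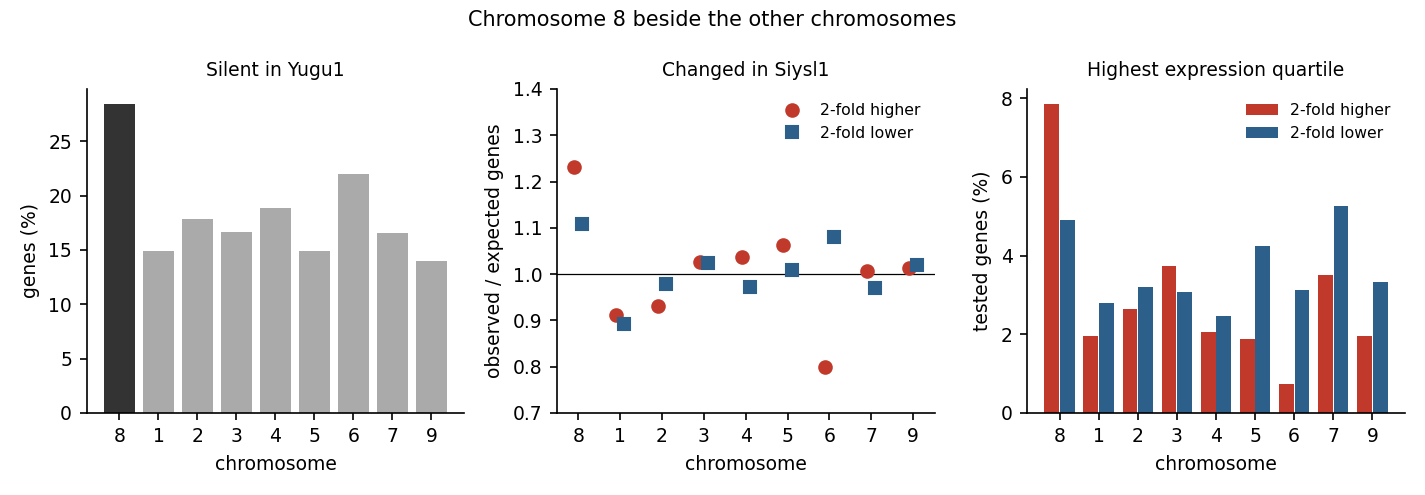
Chromosome 8 beside the 8 other chromosomes of foxtail millet. The panels give the percent of annotated genes that were silent in Yugu1, the observed over the expected number of genes at least 2-fold higher (circles) or lower (squares) in Siysl1 at matched expression, and the percent of tested genes in the highest expression quartile that were at least 2-fold higher or lower. Chromosome 8 had 28.4% silent genes, a ratio of 1.23 for higher genes and 7.84% higher genes in the last panel.

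By level of expression, the share of rises lay furthest above that of the other chromosomes in the highest quartile. Quartiles of mean log2 CPM over all tested genes put 450, 340, 299 and 306 of the tested chromosome 8 genes in the lowest to the highest quartile. The mean is over all 6 libraries, so a rise in Siysl1 itself helps to place a gene in a higher quartile, on any chromosome. Quartiles of the Yugu1 libraries alone were not computed. From the lowest to the highest, 23.1, 17.6, 6.02 and 7.84% of them were at least 2-fold higher in Siysl1, against 21.2, 13.9, 5.58 and 2.33% on the other chromosomes. The highest quartile, from 5.36 log2 CPM up, held 24 such genes on chromosome 8; its share on the other chromosomes ran from 0.72% on chromosome 6 to 3.73% on chromosome 3. At least 2-fold lower were 15.6, 7.65, 5.69 and 4.90% on chromosome 8, against 16.0, 6.11, 3.66 and 3.44% elsewhere. The 24 genes became 23 without Siysl1 replicate 3 and stayed 24 in the other 16 alternatives, while the share on the other chromosomes lay between 2.28 and 3.06%. The quartile was kept from the main fit throughout, so these alternatives repeat only the call and not the choice of well-expressed genes.

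These 24 genes were looked at singly after their values were seen. Their log2 fold changes lay between 1.05 and 2.59 with a median of 1.53, and for all 24 each Siysl1 library was above each Yugu1 library in CPM. Selection as called rises of at least 2-fold makes such separation likely. Over all tested genes, 64.0% had no overlap in CPM, in either direction. They were spread unevenly, with 2, 3, 2, 5 and 12 in the 5 parts of the order. Gene 721 had the highest level in Siysl1 among them, with an average of 788 ± 22.7 FPKM there and 301 ± 9.27 FPKM in Yugu1 (SD, n = 3 each; log2 fold change 1.29 ± 0.04). Gene 1623 averaged 593 ± 38.3 FPKM in Siysl1 and 169 ± 9.78 FPKM in Yugu1, a log2 fold change of 1.71 ± 0.06. For gene 2014 the averages were 550 ± 9.07 FPKM in Siysl1 and 138 ± 4.97 FPKM in Yugu1, a log2 fold change of 1.90 ± 0.05. All 3 passed the edgeR test (adjusted p = 9.99e-13, 6.63e-13 and 1.98e-14).

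Along the order, the balance of rises and falls differed between the first part and the last, without a steady shift between them. The same division was not made for the other chromosomes, so this difference is not shown to be particular to chromosome 8. In the first 507 genes 71 tested genes were higher and 116 lower in Siysl1, where 101 and 91.1 would be expected at matched expression. In the last 507 genes 105 were higher and 51 lower, against an expected 75.8 and 72.3. The second part had 94 higher and 64 lower (75.5 and 71.7 expected), and the third 99 and 82 (86.5 and 78.2 expected). The fourth had 90 and 77 (83.4 and 77.5 expected). Without a scaling factor, which moved all genes upward, the first part had 102 higher and 89 lower genes, but the expected numbers moved with them, to 123 and 70.6. Over the 17 alternatives the ratio of observed to expected in the first part was 0.69 to 0.83 for higher genes and 1.11 to 1.27 for lower ones. In the last part it was 1.23 to 1.54 for higher genes and 0.60 to 0.73 for lower ones. Genes at least 2-fold higher numbered 29, 35, 40, 43 and 59 in the 5 parts in order, against an expected 38.3, 29.9, 33.9, 34.3 and 30.8. Genes at least 2-fold lower numbered 37, 21, 22, 27 and 21, against an expected 25.5, 21.3, 22.8, 23.8 and 22.1. The median log2 fold change was -0.06, 0.08, 0.04, 0.01 and 0.17 in the 5 parts in order.

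In windows of 50 genes, 4 windows of chromosome 8 held 10 genes at least 2-fold higher and none held more. They were genes 701 to 750, 1051 to 1100, 2101 to 2150 and the last window, 2451 to 2535, which has 85 genes. The other chromosomes had 10 windows with 10 or more, up to 14. The window with most 2-fold changes in both directions was genes 101 to 150, with 8 higher and 6 lower (28.0% of its genes); it includes the abundant genes 135 to 137. With windows of 25 genes the most changed was 126 to 150 (40%), and with windows of 100 it was 101 to 200 (23.0%).

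**Figure D4:**
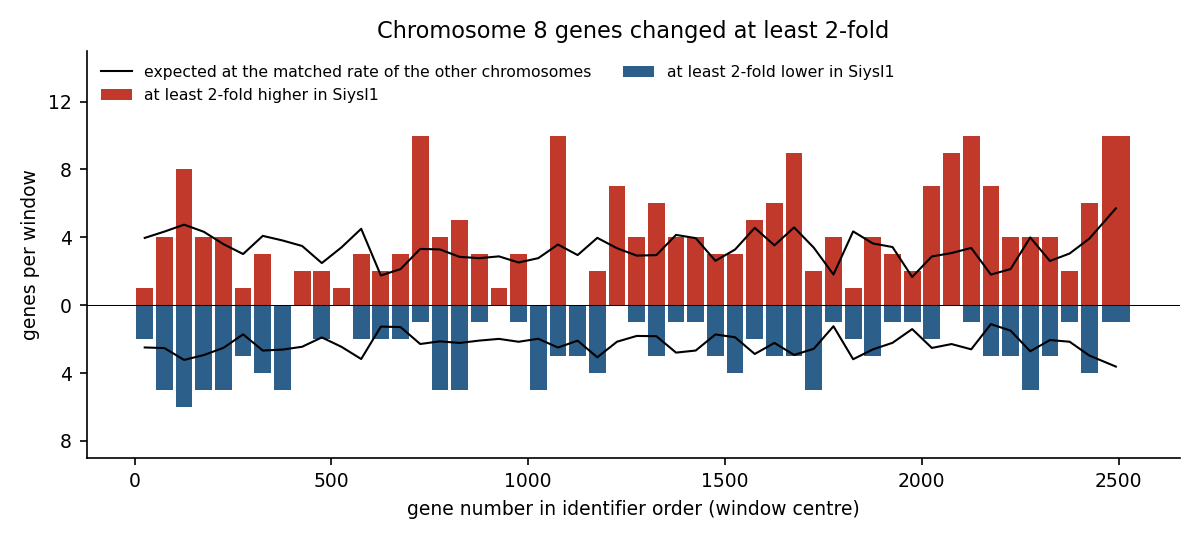
Changes between the genotypes along chromosome 8. Bars give the number of genes at least 2-fold higher (upward) and lower (downward) in Siysl1 in each window of 50 genes, with the last window holding 85, and lines give the numbers expected at matched expression. Higher genes exceed their line most in genes 701 to 750, 1051 to 1100 and 2051 to 2150.

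Genes that rose at least 2-fold also lay next to each other. Among tested neighbours there were 12 runs of at least 3 such genes, with 53 genes in all, 25.7% of the 206. On the other chromosomes 7.69 to 19.9% of such genes lay in runs, and the longest runs held 3 to 8 genes, against 10 on chromosome 8. Rises were also more frequent here, at 14.8% of tested genes against 8.96 to 11.5% elsewhere. More rises alone make runs more frequent and longer, and how much of the run share goes with this was not tested. The longest run on chromosome 8 held 8 to 11 genes over the 17 alternatives, with 8 by the DESeq2 Wald test, by both limma fits on log2(FPKM + 1) and without Yugu1 replicate 2; the longest on any other chromosome held 6 to 8, and in each alternative it was shorter than that of chromosome 8. Falls formed only 2 runs, genes 820 to 826 and 2300 to 2304, with 3 tested genes each, or 4.69% of the 128, against 5.42 to 12.2% elsewhere. Log2 fold changes of consecutive tested genes had a Pearson r of 0.18 over 1394 pairs, against 0.07 to 0.17 on the other chromosomes. Untested genes were skipped, in these pairs as in the runs of changed genes. Fewer genes were tested on chromosome 8 (55.0% against 63.6 to 73.6% elsewhere), so its pairs and runs may skip more genes. Adjacent genes can share reads, and these pairs share their libraries, so the value is a description.

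The longest run of rises was genes 1649 to 1659. It has 11 annotated genes, of which gene 1657 had too few counts to be tested, and the other 10 were all called and at least 2-fold higher with all libraries and in each of the 17 alternatives. The 11 genes together had 59.1, 62.3 and 59.2 CPM in Siysl1 and 11.9, 10.6 and 11.3 CPM in Yugu1, a ratio of means of 5.34. The summed level varied little within a genotype (60.2 ± 1.81 CPM in Siysl1 and 11.3 ± 0.66 CPM in Yugu1, SD, n = 3 each). The groups did not overlap, which is likely in a run picked by its rises. Log2 fold changes of 9 of the 10 genes lay between 1.48 and 3.74. The remaining gene, 1658, had 0 counts in every Yugu1 library, so that only a lower bound of 5.35 can be given for it, and with that bound the median of the 10 was 2.63.

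Of the 11 genes, 9 had an implied length within 5% of 307 bases, so that they may be copies of each other between which reads were split. The labels do not say how reads that match several genes were assigned, and the sequences were not compared. Single genes of the run should be read with that in mind, and the sum is less exposed to it. Gene 1649 had 48.3, 35.7 and 46.7 FPKM in Siysl1 and 15.2, 9.55 and 12.5 FPKM in Yugu1 (log2 fold change 1.70 ± 0.16). Gene 1656 had 45.0, 48.2 and 41.8 FPKM in Siysl1 and 7.38, 6.57 and 4.80 FPKM in Yugu1 (log2 fold change 2.74 ± 0.14). Both passed the edgeR test (adjusted p = 1.26e-07 and 1.74e-10), and the mutant libraries lay well above the wild type for both.

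Replicates of the mutant were less alike for some genes of the run. Gene 1651 had 108, 235 and 55 counts in the Siysl1 libraries and 13, 8 and 11 in the Yugu1 libraries, a spread between mutant replicates wider than that of its neighbours (log2 fold change 3.49 ± 0.48, edgeR adjusted p = 1.07e-05). Gene 1658 had 130, 149 and 131 counts in Siysl1 and 0 in every Yugu1 library. Set against a floor of 3 counts in each Yugu1 library, it was at least 40.7-fold higher. Next to the run on the low side, genes 1645, 1646 and 1647 had log2 fold changes of -0.38, -0.10 and 0.04, of which only the first passed the test; gene 1648 had too few counts. On the high side, genes 1660 and 1661 had 0.51, which passed, and -0.01, which did not. The run ends at these borders by its definition. On the low side the border is not settled, because gene 1648 had 16, 8 and 5 counts in Siysl1 and 0, 3 and 8 in Yugu1 and was not tested.

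**Figure D5:**
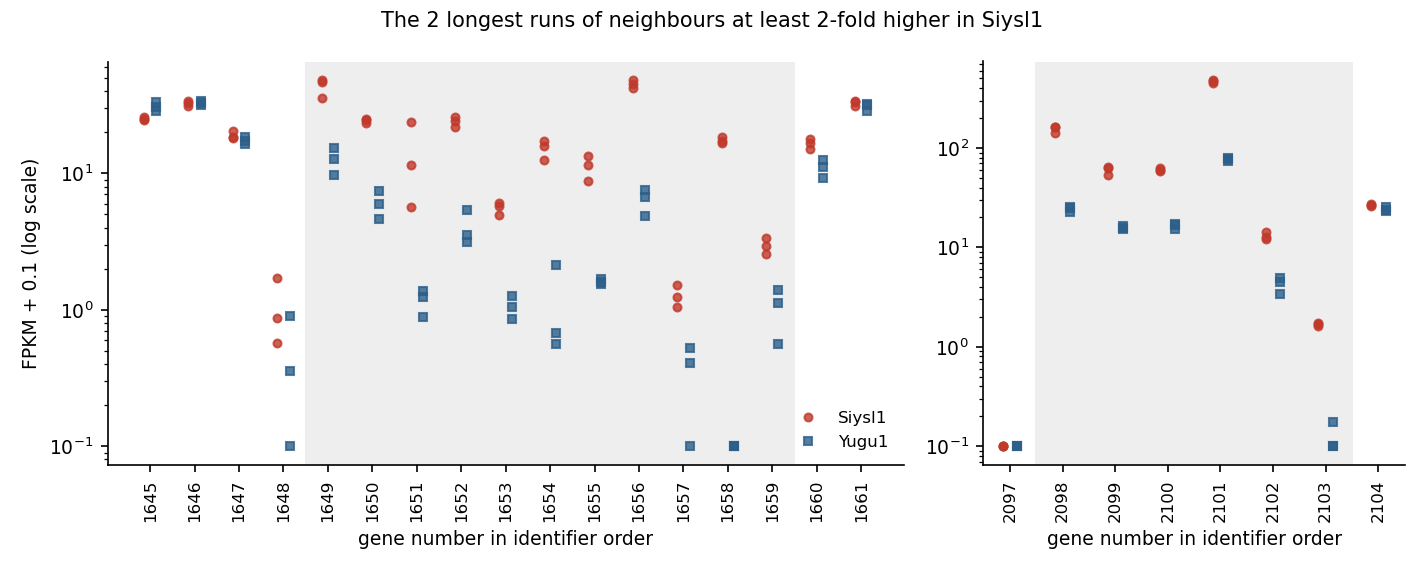
Genes of the 2 longest runs of rises and their neighbours. Points are libraries, on a log axis of FPKM + 0.1, in the identifier order, with Siysl1 (circles) left of Yugu1 (squares); grey shading marks the run. Inside genes 1649 to 1659 and 2098 to 2103 the Siysl1 points lie above the Yugu1 points.

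The run of next length, genes 2098 to 2103, lay among the well-expressed genes; it was singled out after its values were seen. All 6 genes were at least 2-fold higher with all libraries and in each of the 17 alternatives. Their sum was 1019, 1106 and 1125 CPM in Siysl1 and 205, 218 and 219 CPM in Yugu1. The ratio of means was 5.06 without overlap, which is likely for genes picked by their rise. Most of the sum came from gene 2101, with 451, 471 and 485 FPKM in Siysl1 and 74.6, 79.4 and 77.9 FPKM in Yugu1. Its log2 fold change of 2.51 ± 0.05 had an edgeR adjusted p of 1.55e-15. Gene 2098 had 143, 163 and 163 FPKM in Siysl1 and 22.8, 24.8 and 25.1 FPKM in Yugu1 (log2 fold change 2.59 ± 0.06). Gene 2103 was close to silent in the wild type, with 101, 116 and 111 counts in Siysl1 and 6, 0 and 0 in Yugu1. Implied lengths ran from 876 to 2174 bases, so the 6 genes as a set are not of like length. Neighbours 2098 and 2099, with 1808 and 1794 bases, are close in length. So are gene 2103, with 2174 bases, and gene 2104 beyond the run, with 2149. Whether any of these are copies between which reads were split was not tested. Gene 2104, next to the run, did not pass the test (log2 fold change 0.05 ± 0.05), and gene 2097 had no counts in any library.

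The run lies in a stretch from gene 2081 to gene 2121, delimited after the values were seen as the largest group of the 24 well-expressed rising genes with gaps of at most 20 genes. It holds 9 of those 24. Of its 41 genes 30 were tested, 21 were called, 14 were at least 2-fold higher and 0 at least 2-fold lower, where 3.09 higher ones would be expected at matched expression. Since the stretch was delimited by its rises, these counts describe it and test nothing.

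The other 10 runs of rises were shorter, with 3 or 4 tested genes each. The tested genes among 721 to 725 summed to 512, 550 and 532 CPM in Siysl1 and 198, 209 and 195 CPM in Yugu1, mostly from gene 721. Those among 1057 to 1061 summed to 95.5, 101 and 97.3 CPM in Siysl1 and 32.2, 33.2 and 28.8 CPM in Yugu1. Genes 2162 to 2179, which span a silent run of 7 genes, summed to 128, 130 and 130 CPM in Siysl1 and 43.5, 39.6 and 37.5 CPM in Yugu1 over their 4 tested genes. Genes 2326 to 2335 likewise surround 5 silent genes, 2327 to 2331, and summed to 19.2, 19.2 and 17.8 CPM in Siysl1 and 4.51, 6.03 and 5.39 CPM in Yugu1. The genotypes did not overlap in any of these sums, which is likely for genes picked by their rise. In both runs of falls most of the level came from a single gene. In genes 2300 to 2304 it was gene 2300, with 3.42, 4.40 and 5.30 FPKM in Siysl1 and 17.3, 16.3 and 17.6 FPKM in Yugu1 (log2 fold change -2.07 ± 0.11). In genes 820 to 826 it was gene 821, with 24.3, 24.8 and 26.4 FPKM in Siysl1 and 48.5, 41.7 and 53.7 FPKM in Yugu1 (log2 fold change -1.13 ± 0.06). Each run of falls ended in a marginal gene whose genotypes overlapped. These were gene 826 (log2 fold change -1.04 ± 0.38, edgeR adjusted p = 0.0267) and gene 2304 (-1.11 ± 0.45, edgeR adjusted p = 0.047). Neither passes an adjusted p under 0.01, and without them both runs would fall short of 3 tested genes.

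The largest changes of single genes were named by rule from the genes that were called, averaged 5 CPM or more in either genotype and had no overlap, of which 311 were higher and 286 lower in Siysl1. The largest rise was Seita.8G121900.v2.2 (gene 1219), with 203, 266 and 255 counts in Siysl1 and 11, 2 and 7 in Yugu1. It averaged 7.33 ± 0.86 CPM in Siysl1 and 0.22 ± 0.14 CPM in Yugu1 (SD, n = 3 each), a log2 fold change of 5.03 ± 0.28 (edgeR adjusted p = 2.65e-10). It was followed by Seita.8G241700.v2.2 (gene 2417), with 1100, 947 and 952 counts in Siysl1 and 57, 42 and 61 in Yugu1, a log2 fold change of 4.11 ± 0.13 (edgeR adjusted p = 3.48e-13). Genes with 0 counts in every library of a genotype had larger fitted changes but stayed under 5 CPM in the other genotype. The same held for gene 2103, with 6, 0 and 0 counts in Yugu1. Its log2 fold change was 5.57 ± 0.48, but it averaged 3.325 CPM in Siysl1.

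The largest fall was Seita.8G075100.v2.2 (gene 751), with 4, 2 and 6 counts in Siysl1 and 234, 180 and 224 in Yugu1. Its log2 fold change was -5.81 ± 0.27 (edgeR adjusted p = 3.60e-11), with 0.12 ± 0.06 CPM in Siysl1 and 7.04 ± 0.79 CPM in Yugu1. The fall of Seita.8G107300.v2.2 (gene 1073) was next, with 18, 31 and 34 counts in Siysl1 and 309, 211 and 276 in Yugu1, a log2 fold change of -3.38 ± 0.20 (edgeR adjusted p = 8.54e-10). The rule that named these 4 genes asked for a call, no overlap and the largest changes, so the distance between the genotypes follows from it. Each gene kept its direction in all 17 alternatives, which reuse the same libraries.

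Complete switches were rare. Genes with at least 10 counts in every Siysl1 library and 0 in every Yugu1 library numbered 5 on chromosome 8, or 0.197% of its genes beside a background of 0.1% of all genes in the tables, and the other chromosomes had 0 to 6 each. They were genes 725, 935, 1084, 1658 and 2033, named after their values were seen, and they were at least 4.55- to 40.7-fold higher against the floor. The reverse was found for 6 genes, or 0.237% beside a background of 0.328%, with 5 to 19 on each other chromosome. These were genes 73, 483, 836, 1075, 1846 and 2324, at least 5.80- to 28.2-fold lower in Siysl1. The strongest of them was gene 73, with 0 counts in each Siysl1 library and 76, 90 and 73 in Yugu1. Levels were low in both sets apart from gene 1658, with under 3 FPKM in every library.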

How the data were processed

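RNA-seq of 6 spikelet libraries, 3 of Siysl1 and 3 of Yugu1, was analysed from 2 tables the authors deposited: raw counts per gene, and FPKM, so named by the authors in the deposited table. Per the labels' protocols, total RNA was made into mRNA libraries for Illumina sequencing. The aligner, counting tool, strand setting and annotation build were not given in the sources used here. The RefSeq gene table matched 0 of the 2535 chromosome 8 identifiers. A count was 0 wherever FPKM was 0.

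Genes were tested across the whole count table with the quasi-likelihood test of edgeR 4.0.16 in R 4.3.3 (TMM scaling, filterByExpr, genotype as the only term). Benjamini-Hochberg adjustment covered all 25117 tested genes, and an adjusted p under 0.05 made a call. The test was tried on simulated data. CPM used TMM library sizes. SE is that of the log2 fold change. Implied length is a gene's count divided by its FPKM and its library total. Alternatives were other scalings, DESeq2 1.42.0, limma 3.58.1 on log2(FPKM + 1) and log2(FPKM + 0.1), no filter, an adjusted p under 0.01, a replicate block, each library left out, and Siysl1 replicate 1 alone; expectations at matched expression were also computed with 10 or 4 bins, with bins of Yugu1 log2 CPM and with bins of log2 FPKM. Runs needed 5 silent, 10 expressed or 3 changed neighbours.

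Named genes were the largest 2 changes per direction that were called, averaged 5 CPM or more in either genotype and had no overlap, plus members of the longest runs and the 5 most abundant genes. Members, lists and rules were chosen with earlier results of these data known. Replicates are separate individuals per the design text.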

Additional observations from a re-analysis of the deposited data

How the results depend on the processing

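Of 326 recomputed values, 296 kept their direction and stayed within the spread or 1.5 times of the value reported, among them all 68 for the 4 named genes and all 17 for the number of called genes. On log2(FPKM + 1), which shrinks folds of weak genes, limma called 125 genes at least 2-fold higher (95.7 expected at matched expression) and 62 lower (52.9), and 25 at least 4-fold higher (13.3) and 8 lower (11.6). Without a filter these were 124 (98.6), 62 (54.8), 25 (13.7) and 8 (11.9). On log2(FPKM + 0.1), 75.1 genes were expected 2-fold lower, and 29 were 4-fold lower (28.6 expected). With no filter on counts, 71 were 4-fold lower (80.1 expected). The cause of these moves was not tested. With under 10 counts as the limit, 1110 genes were silent in 48 runs, the longest of 23 genes. Runs of expressed genes numbered 9 at 0.5 FPKM and 0 at 5 FPKM. Genes with counts in Yugu1 only numbered 10 at a minimum of 5 counts and 1 at 30, and those in Siysl1 only 2 at 30. The share of counts turned to 0.194 percentage points without gene 2265.

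Leaving out each library in turn gave 784 to 843 called genes (742.9 to 832.1 expected), 205 to 217 at least 2-fold higher (161.0 to 174.9) and 125 to 136 lower (114.4 to 124.8), 71 to 80 at least 4-fold higher (46.8 to 56.0) and 45 to 51 lower (50.5 to 58.5). Silent genes numbered 771 to 782 in 24 to 27 runs, expressed genes 1089 to 1100 in 3 to 4 runs, and genes with counts in Siysl1 only 5 to 7 and in Yugu1 only 6 to 9. The share difference lay between -0.224 and -0.178 percentage points. Without a scaling factor 63.5% of the called chromosome 8 genes were higher, against 54.1% with it, while the median log2 fold change of all tested genes moved to 0.11 from 0.01; over all tested genes the share moved to 62.5% from 51.0%.

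Deviations from the group means correlated by 0.063, 0.067 and 0.044 across genes between libraries with the same replicate number, under the limit of 0.1, so the numbers were not taken as pairs. With a replicate block 869 genes were called, 842 of them also without it, with 210 at least 2-fold higher and 126 lower.

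Weak genes are limited by depth: a gene at a few counts is not distinguishable from silence, and 1140 chromosome 8 genes had no test. Order is by identifier, not distance. Alternatives for the parts of the order, run lengths, the highest quartile and the share of counts without a library or gene 2516 were added after the data were seen.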
